A study of Mus musculus with 14 samples.

Results

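The genes described here are 46 cyclins, cell cycle kinases and mitotic genes, chosen as a named list and each followed by its brightest probe set, the one with the highest mean signal over 14 arrays. Of these, 45 were measured, out of 11815 genes tested and 18193 genes with a named probe set. Ccnb1, the cyclin B1 gene, was matched to none of the annotated probe sets and was not analysed here. Every one of the 45 reached the signal filter of 200 on at least 1 array. They comprise 34 genes of mitosis and 11 genes of the G1 phase and the start of DNA replication, called the G1/S members below. Total RNA of 14 samples had been measured on expression arrays. There were 12 osteosarcomas, bone tumours that arose in p53+/- mice, which carry 1 working copy of the p53 gene. One further tumour from a p53+/- mouse is labelled rhabdomyosarcoma. The last sample was the untreated, cultured, non-tumorigenic mc3T3 mouse osteoblast line. The labels state neither ages nor a number of mice. The tumours were bulk tissue, so fewer cells of a type and less RNA per cell cannot be told apart, and the line is 1 culture.

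A cell enters division in steps. D-type cyclins with Cdk4 and Cdk6, then E-type cyclins with Cdk2, release E2F transcription factors that switch on genes for DNA replication. Later, Foxm1 and the DREAM and MuvB complexes govern genes for mitosis, among them Cdk1, Plk1, the Aurora kinases, kinetochore proteins and spindle motors. The anaphase-promoting complex with Cdc20 then destroys mitotic cyclins and lets the chromosomes part. In p53-proficient cells, the p53 target Cdkn1a restrains the cyclin-dependent kinases and so keeps mitotic promoters off.

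DREAM and MuvB bind the element called CHR, and the factor NF-Y binds CCAAT boxes, so the promoters of the members were searched for both and for E2F sites. RefSeq promoters of build GRCm38.p6 were matched by symbol for 38 of the 46 listed genes, covering 250 bases before to 50 bases after each start. The CHR was searched by the letters TTTGAA or, in a second form, the letters TTTAAA, and the box named CCAAT by those letters. An E2F site was searched by the letters TTCGCGC or, in a second form, the letters TTGGCGC or, in another form, the letters TTCCCGC. Both strands were read. The reverse of a CCAAT box can overlap TTGGCGC, as it does in E2f8. A CHR match was present in the windows of 24 of 30 mitotic members (80.0%), 3 of 8 G1/S members (37.5%), 30.6% of all 27025 genes with a promoter and 22.8% of the genes tested. A CCAAT match was present in 76.7% of the mitotic members, 4 of 8 G1/S members, 41.1% of all promoter genes and 42.4% of those tested. For the E2F letters the shares were 10.0% of the mitotic members, 37.5% of the G1/S members, 9.20% of all and 16.5% of those tested. CHR and CCAAT stood together in 70.0% of the mitotic members and in 9.08% of the genes tested. A match is only a match of letters, and these genes were listed for a known role.

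The 150 bases before the start of 9 members are shown for the contrast between mitotic promoters with both elements and the exceptions met below. They were chosen after the values and matches had been seen. Capitals mark every CHR, CCAAT and E2F match on either strand. Bub1, Nusap1, Nuf2 and Melk, mitotic members with no CHR match in their windows, are not shown. They too were low in osteosarcoma 12, the tumour described next, by 1.32 log2 units for Melk to 1.97 for Nuf2. The first 6 sequences belong to mitotic members whose signal was low in that tumour.
Cdc20, chr4:118437344-118437493, minus strand: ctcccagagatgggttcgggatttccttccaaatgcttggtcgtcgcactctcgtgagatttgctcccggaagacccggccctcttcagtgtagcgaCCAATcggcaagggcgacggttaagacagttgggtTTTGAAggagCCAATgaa
Top2a, chr11:99024190-99024339, minus strand: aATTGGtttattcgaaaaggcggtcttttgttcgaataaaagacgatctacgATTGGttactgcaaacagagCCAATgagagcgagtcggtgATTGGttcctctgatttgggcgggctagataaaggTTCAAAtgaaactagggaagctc
Cdk1, chr10:69352913-69353062, minus strand: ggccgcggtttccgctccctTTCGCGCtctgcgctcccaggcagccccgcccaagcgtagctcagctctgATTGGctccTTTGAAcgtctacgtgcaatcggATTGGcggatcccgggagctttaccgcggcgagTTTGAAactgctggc
Kif11, chr19:37376232-37376381, plus strand: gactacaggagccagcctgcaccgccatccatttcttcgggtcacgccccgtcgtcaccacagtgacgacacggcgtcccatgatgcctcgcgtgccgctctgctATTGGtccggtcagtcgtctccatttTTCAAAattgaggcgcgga
Plk1, chr7:122159285-122159434, plus strand: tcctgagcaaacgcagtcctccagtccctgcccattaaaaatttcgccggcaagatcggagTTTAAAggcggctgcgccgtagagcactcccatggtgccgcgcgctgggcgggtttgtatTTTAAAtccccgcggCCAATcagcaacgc
Mki67, chr7:135716380-135716529, minus strand: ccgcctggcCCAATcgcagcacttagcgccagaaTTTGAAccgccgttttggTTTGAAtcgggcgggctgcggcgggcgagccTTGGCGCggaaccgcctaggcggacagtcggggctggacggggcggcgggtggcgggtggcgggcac
The other 3 are Cks1b and Mad2l1, mitotic members that were not low in that tumour, and Ccne1, a G1/S member.
Cks1b, chr3:89418292-89418441, minus strand: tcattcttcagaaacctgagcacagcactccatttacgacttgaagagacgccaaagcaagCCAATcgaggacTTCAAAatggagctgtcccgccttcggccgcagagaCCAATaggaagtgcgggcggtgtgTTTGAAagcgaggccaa
Mad2l1, chr6:66535071-66535220, plus strand: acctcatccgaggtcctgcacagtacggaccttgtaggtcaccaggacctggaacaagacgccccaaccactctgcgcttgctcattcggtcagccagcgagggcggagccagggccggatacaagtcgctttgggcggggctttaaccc
Ccne1, chr7:38107491-38107640, minus strand: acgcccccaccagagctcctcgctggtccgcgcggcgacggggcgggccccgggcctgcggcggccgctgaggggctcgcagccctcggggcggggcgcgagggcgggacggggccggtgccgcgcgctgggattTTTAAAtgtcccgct
In Kif11, the spindle motor, a CCAAT match began 45 bases and a CHR match 19 bases before the start, both on the reverse strand. Cdk1, the main mitotic kinase, had a CHR match 71 and another 15 bases before the start. Cks1b held CHR and CCAAT matches like the first 6, whereas Mad2l1 held none of the letters and Ccne1 held a lone TTTAAA.

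Signals are linear array units that the authors had scaled to a trimmed mean of 500 on each array, and differences are on the log2(signal + 30) scale. Signals are compared between arrays within a gene, not between genes. Median signal over probe sets ran from 67.0 in osteosarcoma 12 (m520) to 111.1 in osteosarcoma 2. The ratio of the 3′ to the 5′ beta-actin probe set, which rises with RNA breakdown, was 1.24 for the labelled rhabdomyosarcoma, 1.32 for mc3T3, 1.42 to 1.97 in osteosarcomas 1 to 11 and 2.13 in osteosarcoma 12. The Gapdh ratio of osteosarcoma 12 was 0.77, inside the 0.74 to 1.03 of the other osteosarcomas. Of 5 osteoblast markers tested, all 5 were called lower in the tumour labelled rhabdomyosarcoma than in the osteosarcomas, and 3 were called higher in the osteosarcomas than in mc3T3. Ibsp, the bone sialoprotein gene, was 37.4 in mc3T3 and 155.0 in the tumour labelled rhabdomyosarcoma, against at least 30210 in the osteosarcomas. None of 4 myogenic markers tested was raised in that tumour, where Myod1 was 39.4 and Myog 65.9, so its label was not borne out by these markers.

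The members' largest shift was in 1 tumour. In osteosarcoma 12, 32 of the 34 mitotic members had their lowest signal of the 12 osteosarcomas, against 16.6% of all genes tested. The exceptions were Mad2l1 and Cks1b. Of the 34, 31 were at least 1 log2 unit below the mean of the other 11, against 8.71% of all genes, and none was at least 1 above it, against 3.79%. The mean over the mitotic members lay 1.49 log2 units below that of osteosarcomas 1 to 11, whose own means ran from -0.25 in osteosarcoma 10 to 0.33 in osteosarcoma 3 on the same scale. This is a description of a single array with no replicate, and the tumour was singled out after its values were seen.

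**Figure D1:**
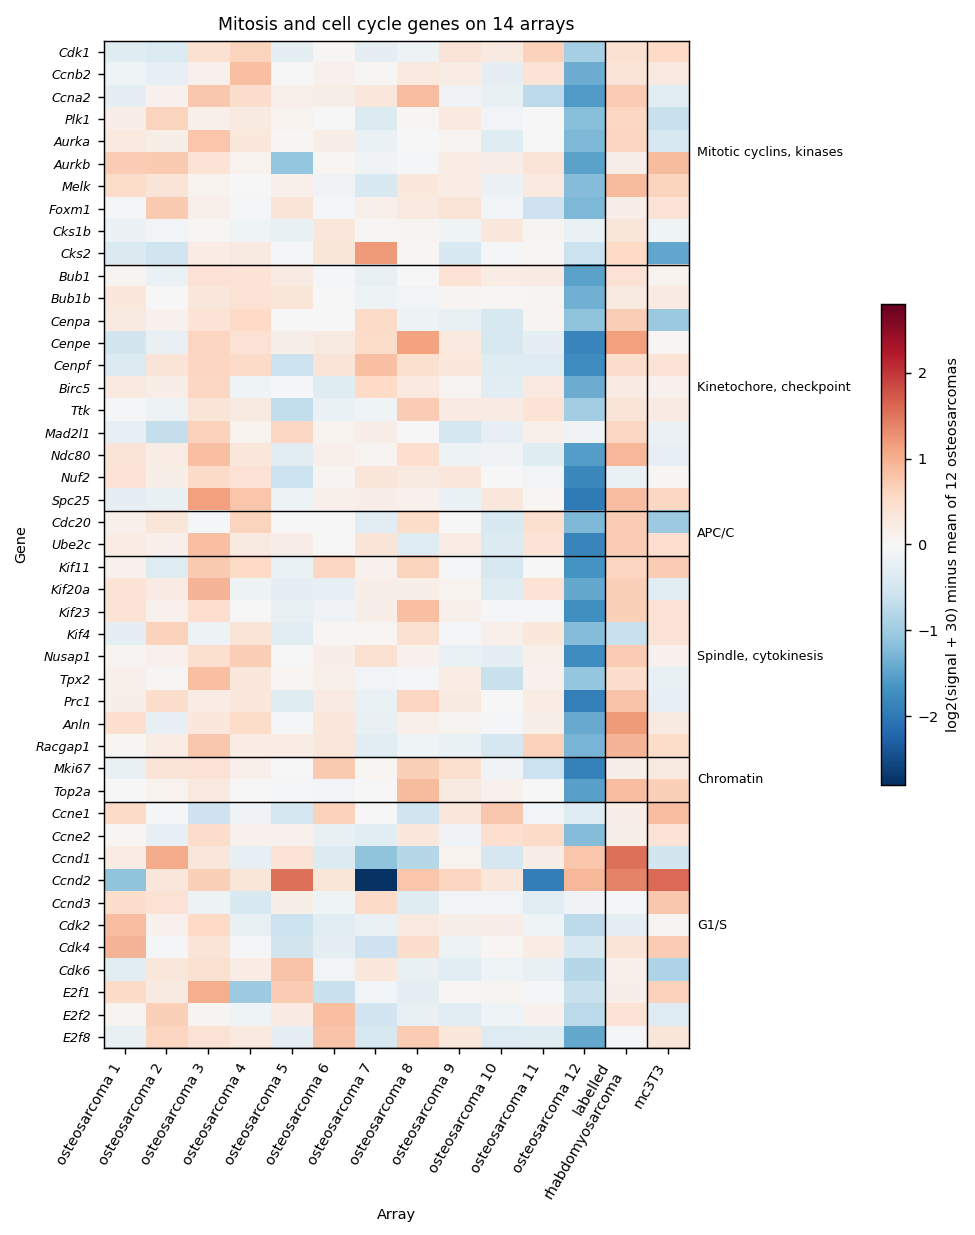
Each row is a member and each column an array. Colour gives log2(signal + 30) minus the mean of the 12 osteosarcomas. Osteosarcoma 12 is blue in the mitotic rows apart from Cks1b and Mad2l1, and Ccnd2 is darkest blue in osteosarcoma 7.

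Both genes of chromatin and proliferation showed it. Mki67, which encodes the proliferation antigen Ki-67, had signals of 1860 in osteosarcoma 1, 2752 in 2, 2837 in 3, 2366 in 4, 2153 in 5, 3572 in 6, 2245 in 7, 3447 in 8, 2960 in 9, 2019 in 10, 1401 in 11 and 556 in 12. Osteosarcoma 12 was at 22.2% of the mean of the others, below osteosarcoma 11, the next lowest. The tumour labelled rhabdomyosarcoma (2410) and mc3T3 (2564) lay inside the osteosarcoma range. Top2a, the topoisomerase that untangles chromosomes, was 915 in osteosarcoma 12, 2560 to 3271 in the other osteosarcomas apart from osteosarcoma 8, and 5023 in osteosarcoma 8. The lone tumour (4920) and mc3T3 (4313) were near that high value.

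Among 11 kinetochore and checkpoint genes, 10 were lowest in osteosarcoma 12. Spc25, a subunit of the NDC80 complex that grips microtubules, had a lowest signal of 212 in osteosarcoma 12, a median of 981 and a highest of 2069 in osteosarcoma 3. The next lowest was 753 in osteosarcoma 1, so osteosarcoma 12 stood outside the range of the rest. Cenpe, a kinetochore motor, ran from 161 in osteosarcoma 12 over a median of 760 to 1475 in osteosarcoma 8. Cenpf, another kinetochore protein, ran from 163 in osteosarcoma 12 over a median of 794 to 1138 in osteosarcoma 7. Without osteosarcoma 12 the lowest values were 447 for Cenpe in osteosarcoma 1 and 405 for Cenpf in osteosarcoma 5. Ndc80 was 97.8 in osteosarcoma 12 against 265 to 642 in the others, and Nuf2, its partner, was 215 against 532 to 1212. The survivin gene Birc5 was 954 against 2004 to 3793. Mad2l1, the checkpoint protein that holds back Cdc20, went its own way, at 3046 in osteosarcoma 12 within 2058 to 5123 in the others.

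Of the 10 mitotic cyclins, kinases and their regulators, 9 were lowest in osteosarcoma 12. Cdk1 was 1346 there against 1989 to 4062 in the other osteosarcomas. Ccna2, cyclin A2, was 747 against 1376 to 4221. Ccnb2, cyclin B2, was 462 against 1045 to 2269. Plk1 (251 against 465 to 967), Aurka (383 against 751 to 1644) and the transcription factor Foxm1 (111 against 196 to 528) were low in the same way. Aurkb was 116 in osteosarcoma 12 and also low, at 164, in osteosarcoma 5, with 352 to 654 in the rest. Cks1b, a small subunit that docks cyclin-dependent kinases, varied least of all members, from 9081 in osteosarcoma 5 over a median of 10387 to 13048 in osteosarcoma 6. Osteosarcoma 12, at 9244, was within that range.

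Both partners of the anaphase-promoting complex were low as well. Cdc20, its activator, ran from 1590 in osteosarcoma 12 over a median of 3803 to 5917 in osteosarcoma 4, with 2841 the lowest of the others. Ube2c, the enzyme that supplies its ubiquitin, was 632 in osteosarcoma 12 and 1795 to 4201 in the others. All 9 spindle and cytokinesis members were lowest in osteosarcoma 12. Anln, the anillin of the cleavage furrow, ran from 655 in osteosarcoma 12 over a median of 1942 to 2575 in osteosarcoma 4. Kif11 was 89.5 in osteosarcoma 12 against 248 to 599, and Prc1, which bundles the central spindle, was 229 against 740 to 1446.

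**Figure D2:**
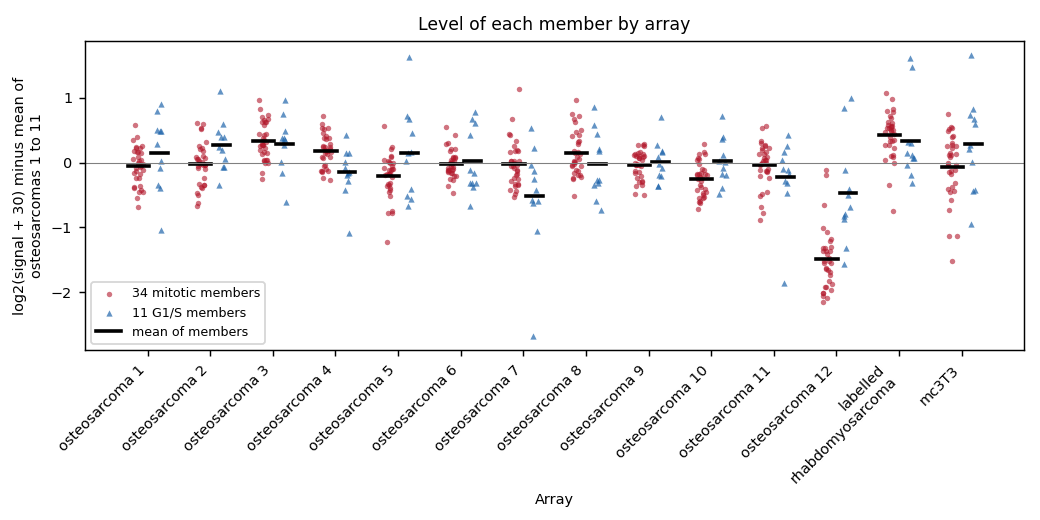
Points give each member's log2(signal + 30) minus its mean over osteosarcomas 1 to 11 on every array, with a bar at the mean of the members. The mitotic mean is -1.49 in osteosarcoma 12 and between -0.25 and 0.42 on the other tumours' arrays, and the G1/S mean is -0.48 in osteosarcoma 12 and -0.51 in osteosarcoma 7.

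The G1/S members followed only in part. In osteosarcoma 12, 5 of 11 had their lowest signal, against 16.6% of all genes. At least 1 log2 unit below the mean of the others were 2, against 8.71% of all genes. The 2 were Ccne2 (228 against 450 to 834) and E2f8 (66.7 against 160 to 422). Less the mean of osteosarcomas 1 to 11, the median G1/S member was at -0.68, below the -0.42 of osteosarcoma 7, the next lowest. The mean was -0.48 there and -0.51 in osteosarcoma 7. Ccne2 is a cyclin E, and E2f8 a repressor among the E2Fs. The D-type cyclins were not low there by their brightest probe sets. Ccnd1 was 8889, below only osteosarcoma 2 among the osteosarcomas, and Ccnd2 was 9883, below only osteosarcoma 5. Ccnd3 was 1575, within the 1263 to 2497 of the others. Less the mean of the other 11, the other Ccnd1 probe sets that reached the filter were at 0.65 and -0.33. Those of Ccnd2 ran from -0.25 to 1.27, and that of Ccnd3 was at 1.66.

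Other probe sets and other lists gave the setting of this low tumour. A further 19 probe sets of 14 mitotic members reached the filter. Of the 19, 13 were lowest in osteosarcoma 12, against 16.6% of all genes tested by their brightest probe set. The mean of the 19 there was 1.06 log2 units below the mean of the 12. After quantile normalization the mitotic mean of osteosarcoma 12 was 1.20 below the mean of the 12, against 1.37 as scaled. Of 60 other mitotic genes that are not members, 30 were at least 1 log2 unit below the mean of the other 11 there. Of 32 replication genes 14 were, against 8.71% of all genes tested. The median gene lay 1.04 lower in the first list, 0.88 lower in the replication list and 0.17 lower among 15 subunits and ubiquitin enzymes of the anaphase-promoting complex. Among mitotic members the median difference of osteosarcoma 12 was -1.51 for the 23 with a CHR match and -1.48 for the 6 with a promoter but no CHR match, medians close to each other.

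Tissue markers and RNA measures on the same array were as follows. The summed signal of the 8 macrophage markers was 68492 in osteosarcoma 12, inside the 40260 to 87690 of the other osteosarcomas. That of the 6 endothelial markers was 5625, inside 3620 to 11679. The 8 skeletal muscle markers summed to 13397, inside 520.6 to 272762, the 4 lymphocyte markers to 248.6, inside 160.1 to 656.9, and the 3 erythroid markers to 319.6, inside 162.4 to 8458. The 4 myogenic markers summed to 955.2, inside 231.6 to 10716. The 5 osteoblast markers summed to 123151, above the 68846 to 120705 of the others, and the 6 osteoclast markers to 132785, inside 61822 to 133279. The mean log2 level of the osteoclast markers, 13.35, was however the highest of the 12 (11.42 to 13.29 in the others), with 2 of the 6, Acp5 and Calcr, highest in osteosarcoma 12 and a median difference of 0.87. That of the osteoblast markers was 13.61, inside 12.64 to 13.78. The beta-actin ratio of osteosarcoma 12 was the highest and its median signal the lowest, and the part of these and of the osteoclast and osteoblast markers in the low mitotic signals was not tested. Osteosarcomas 6 and 4 had the next highest ratios, 1.97 and 1.85. Their mitotic means, less the mean of osteosarcomas 1 to 11, were -0.02 and 0.19. Cdkn1a, the kinase inhibitor p21, was highest in osteosarcoma 12 at 7809, against 1426 to 7236 in the other osteosarcomas. Of all genes tested, 9.42% were highest in osteosarcoma 12. The part of Cdkn1a in the low mitotic signals of this tumour was not tested.

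Ccnd2 varied most of all members among the osteosarcomas, with an SD of 1.27 log2 units against a median of 0.52 over the members and 0.43 over all genes. Cyclin D2 is 1 of 3 D-type cyclins that start the cycle. Its signals were 2370 in osteosarcoma 1, 6496 in 2, 8241 in 3, 6599 in 4, 15262 in 5, 6643 in 6, 742 in 7, 8938 in 8, 7977 in 9, 6488 in 10, 1339 in 11 and 9883 in 12. Osteosarcomas 7, 11 and 1 were low and osteosarcoma 5 high, a ratio of 20.6 between the ends. The 3 low tumours have identifiers that begin with c, as does osteosarcoma 2, at 6496. Whether the identifier letter bears on Ccnd2 was not tested. The tumour labelled rhabdomyosarcoma (13693) and mc3T3 (15626) were at the upper end. The other 6 probe sets of Ccnd2 followed the brightest across the 12 tumours, with r of 0.80 to 1.00. By its brightest probe set, cyclin D1 was also lowest in osteosarcoma 7, at 2382, with a median of 5752 and a highest value of 10745 in osteosarcoma 2. Both other probe sets of Ccnd1 were lowest in osteosarcoma 8 instead, at 2252 and 476, with 2976 and 1178 in osteosarcoma 7. Ccnd1 and Ccnd2 had r = 0.39, and Ccnd2 and Ccnd3 r = -0.40, over the 12 tumours, given as descriptions over shared arrays.

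Single tumours stood out for other G1/S members and for Cks2. Cdk4, the partner of the D-type cyclins, was 9883 in osteosarcoma 1 against 3412 to 7183 in the other 11. Cdk6, its relative, was 4168 in osteosarcoma 5 against 1363 to 3224. Cks2, the second docking subunit, was 9041 in osteosarcoma 7 against 2583 to 4975. E2f1 ran from 165 in osteosarcoma 4 to 775 in osteosarcoma 3, and E2f2 from 50.4 in osteosarcoma 12 to 214 in osteosarcoma 6, with most tumours below the filter level of 200 for E2f2. These tumours were picked out after their values were seen. Second probe sets kept osteosarcoma 1 apart for Cdk4 (8715 against at most 4875) and osteosarcoma 7 for Cks2 (5704 against at most 4320). That of Cdk6 had osteosarcoma 5 at 3342.5, close to osteosarcoma 2 at 3111. That of E2f1 had r = 0.42 with the brightest and ran from 106 in osteosarcoma 12 to 379 in osteosarcoma 10.

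**Figure D3:**
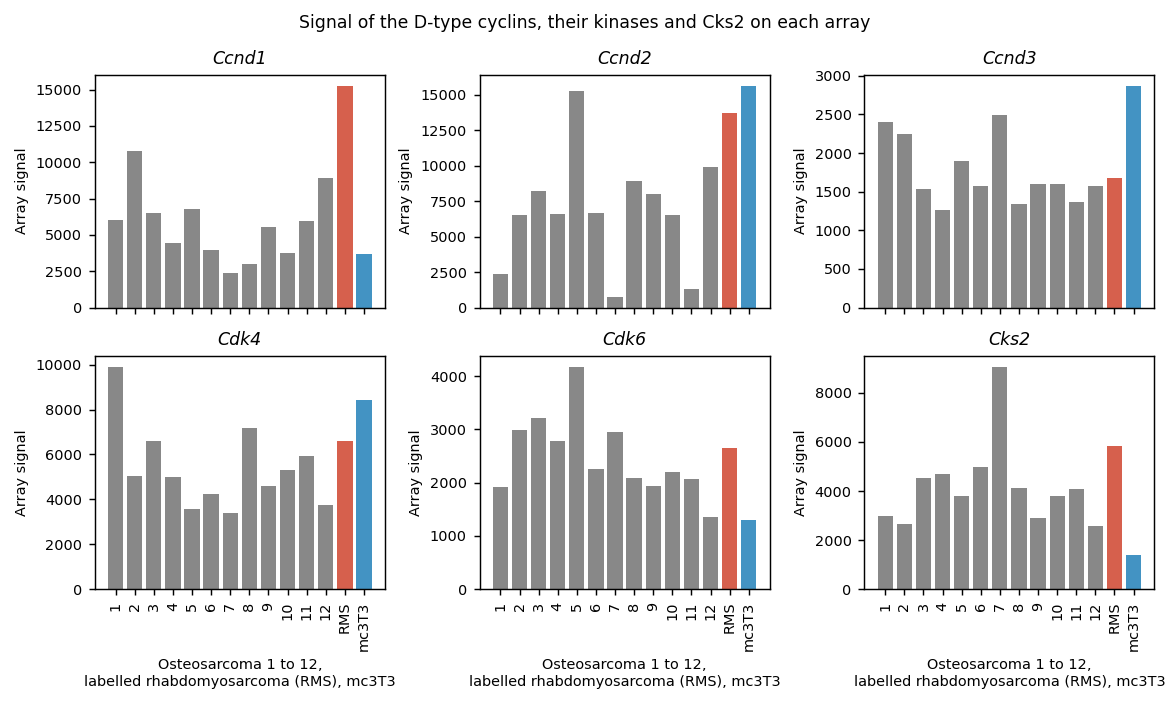
Bars give the array signal of 6 members on each array, from 0, for osteosarcomas 1 to 12, the tumour labelled rhabdomyosarcoma (RMS) and mc3T3. Ccnd2 is low in osteosarcomas 1, 7 and 11, Cks2 is high in osteosarcoma 7 and lowest in mc3T3, and Ccnd1 is highest in the tumour labelled rhabdomyosarcoma.

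How far the members moved together depended on osteosarcoma 12. Over the 12 tumours the median Pearson r of the 561 pairs of mitotic members was 0.72, against 0.01 for pairs among 1000 genes drawn from all tested. Without osteosarcoma 12 it was 0.22, against 0.00 for the drawn genes. The G1/S pairs had a median of 0.15 with it and 0.12 without. Spindle and cytokinesis pairs went from 0.80 to 0.34, kinetochore and checkpoint pairs from 0.75 to 0.34, and the mitotic cyclin and kinase pairs from 0.51 to 0.00. The median SD of the mitotic members was 0.53 with osteosarcoma 12 and 0.33 without it, where all genes had 0.43 and 0.41. Over the remaining 11 tumours the median mitotic member thus had a smaller SD than the median gene. Over the 11, Kif11 and Ndc80 had the highest r with the mean of the other mitotic members, at 0.82 and 0.79, and over the 12 it was Nusap1, at 0.95. These values are descriptions over genes that share the same arrays.

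**Figure D4:**
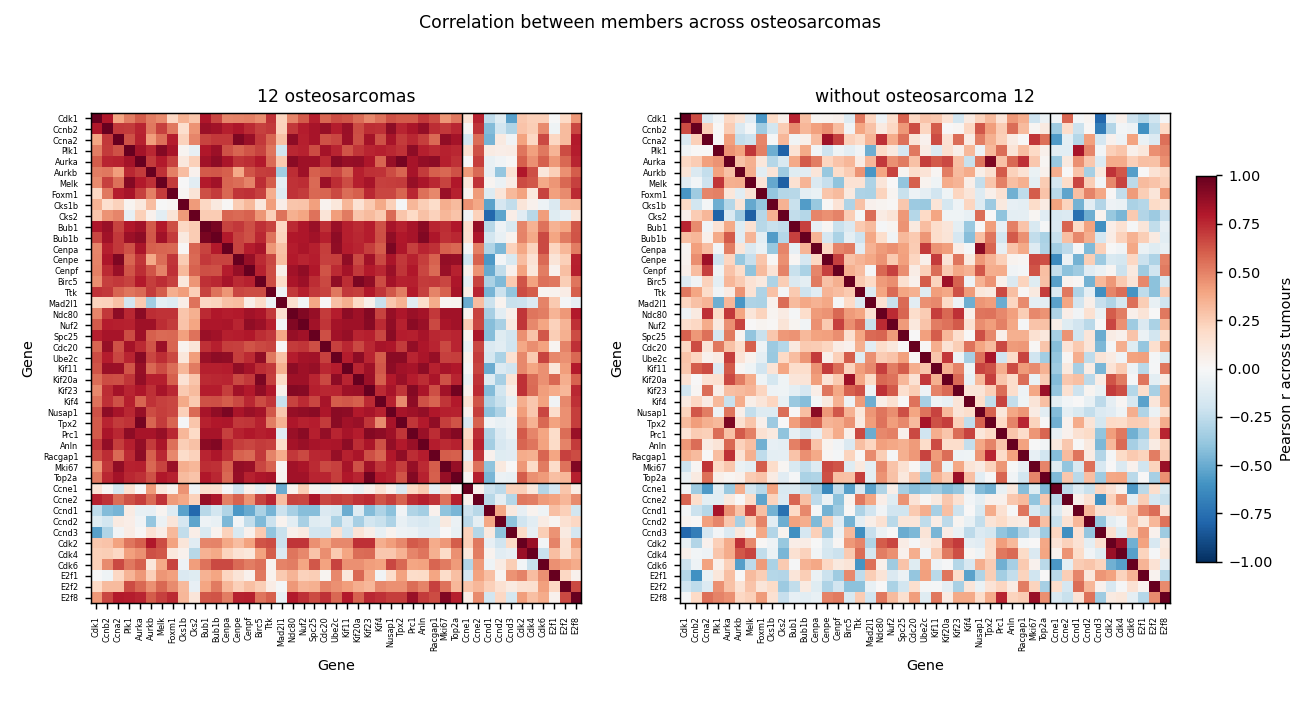
Each cell is the Pearson r between 2 members across tumours, on the left over 12 osteosarcomas and on the right without osteosarcoma 12. Lines part the 34 mitotic from the 11 G1/S members. The median of the mitotic block is 0.72 on the left and 0.22 on the right.

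The genes outside the list whose pattern was most like the mitotic mean were ranked by Pearson r over the 12 osteosarcomas. They were Kif20b (0.97), Ckap2l (0.96), E2f7 (0.95), Kif18b (0.94), Fbxo5 (0.94), Kntc1 (0.93), Aspm (0.93), Nipal3 (0.93), Ncapg (0.92) and Pbk (0.92). Kif20b and Kif18b are kinesin motors, Fbxo5 an inhibitor of the anaphase-promoting complex and Ncapg a condensin subunit. All 10 were lower in osteosarcoma 12 than the mean of the others, by 1.44 for Nipal3 to 3.11 for Fbxo5. That follows largely from the ranking, because osteosarcoma 12 sets most of the spread of the mitotic mean. Without it their r ran from 0.38 for Ncapg to 0.78 for Kif18b. Of the 100 most alike genes only 13 were also among the 100 most alike without osteosarcoma 12, where Kif20b had r = 0.77 and ranked 15.

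Of 8 planned relations, 7 could be run over the osteosarcomas, since Ccnb1 was not measured, with two-sided permutation tests of 100000 resamples and Benjamini-Hochberg adjustment over 7. Top2a and Mki67 had r = 0.87 (p = 0.00411, adjusted p = 0.0154) and rho = 0.45 (p = 0.147, adjusted p = 0.342). Foxm1 and its target Plk1 had r = 0.83 (p = 0.00439, adjusted p = 0.0154) and rho = 0.67 (p = 0.0196, adjusted p = 0.0687). Both rested on osteosarcoma 12. Without it, the permutation tests gave r = 0.49 and 0.50 (adjusted p = 0.238 for each). With the 2 tumours farthest from the median left out, r was 0.30 for the first pair and 0.14 for the second. Cdkn2a, which encodes the tumour suppressors p16 and p19Arf, ran against Mki67 with r = -0.41 (p = 0.186, adjusted p = 0.374) and rho = -0.71 (p = 0.0130, adjusted p = 0.0687), with r = -0.53 when the farthest 2, osteosarcomas 1 and 7, were left out. Without osteosarcoma 12 the same pair had r = -0.66 (adjusted p = 0.199) and rho = -0.77 (adjusted p = 0.0497). E2f1 and Ccne1 had r = -0.16 and rho = -0.07 (p = 0.606 and 0.834, adjusted p = 0.643 and 0.834). Mki67 had r = -0.26 with Cdkn1a (p = 0.431, adjusted p = 0.603), -0.16 with the macrophage receptor gene Csf1r (p = 0.643, adjusted p = 0.643) and -0.38 with the beta-actin ratio (p = 0.214, adjusted p = 0.374). Their rho were -0.08, 0.10 and 0.23 (p = 0.816, 0.767 and 0.471, adjusted p = 0.834, 0.834 and 0.824), and none of these passed. With the 2 farthest left out, r was -0.01 for E2f1 and Ccne1, -0.35 for Cdkn1a, 0.34 for Csf1r and 0.18 for the beta-actin ratio.

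Against mc3T3, which grew in culture, the osteosarcomas showed no member past the thresholds. In the limma fit over all genes, 0 of 45 were called higher and 0 lower at an adjusted p under 0.05 and a difference of at least 1 log2 unit, where 8.59% of all genes were called higher and 4.58% lower. At an unadjusted p under 0.05 there were 2 higher and 0 lower, against 15.3% and 12.3% of all genes. The members' median difference was -0.24, against -0.02 over all genes. By role it was -0.08 for the mitotic cyclins and kinases, -0.09 for the kinetochore and checkpoint genes, -0.25 for the spindle and cytokinesis genes, -0.38 for the G1/S members and -0.46 for the 2 chromatin and proliferation genes. For the 2 partners of the anaphase-promoting complex it was 0.28, from Cdc20 at 1.02 and Ube2c at -0.47. The line is 1 culture, assumed in the fit to vary like the tumours, and a p that misses the threshold does not show that the levels are alike.

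Cks2 had the largest positive difference, at 1411 in mc3T3 against 4174 ± 1731 (SD, n = 12) in the osteosarcomas, 1.46 ± 0.49 (SE) log2 units (limma adjusted p = 0.0662). All 12 tumours were above the line. Without osteosarcoma 7 it was called (1.35, limma adjusted p = 0.0256). The second probe set of Cks2 did not share the difference, with 3178 in mc3T3 inside 1566 to 5704 in the tumours and a difference of -0.09. Cenpa, the centromere histone, was 829 in mc3T3 against 1801 ± 509 (SD, n = 12), a difference of 1.03 ± 0.47 (limma adjusted p = 0.166). Osteosarcoma 12, at 779, was the one tumour below the line, and without it Cenpa was called (1.13, limma adjusted p = 0.0463). Its dim second probe set gave -0.73. Cdc20 was 1866 in mc3T3, with 11 of 12 tumours above it and a difference of 1.02 ± 0.51 (limma adjusted p = 0.207).

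In the other direction Ccnd2 had the largest difference, -1.58 ± 1.17 (limma adjusted p = 0.412), with every tumour below the line. mc3T3 was above all 12 osteosarcomas for 5 members, against 21.0% of all genes, and below all 12 for 2 members, against 21.5%. The 5 were Aurkb (733), Melk (922), Ccne1 (868), Ccnd2 and Ccnd3 (2873), and the 2 were Cks2 and Cdk6 (1300). On second probe sets mc3T3 lay inside the tumour range for Cdk6 (1729.7 inside 993.6 to 3342.5) and Aurkb (465.2 inside 97.5 to 481.3). The dim second probe set of Ccnd3 also had it inside (42.0 inside 14.3 to 356.6). Those of Ccne1 (479.5 against at most 375.8) and Ccnd2 (11049.5 against at most 11035.4) had it above, and Melk has 1 probe set.

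Among 130 other cell cycle genes in 5 lists, 3 were called higher and 3 lower in the osteosarcomas than in mc3T3, 2.31% each way, against 8.59% and 4.58% of all genes. Of 10 kinase inhibitors and pocket proteins, Cdkn2a (3.50 ± 1.09, limma adjusted p = 0.0461) and Cdkn2b (4.14 ± 1.03, limma adjusted p = 0.0153) were higher in the osteosarcomas and Cdkn2c (-1.42 ± 0.32, limma adjusted p = 0.00901) lower. Cdkn2a was 5.3 and Cdkn2b 6.9 in mc3T3, against 53.1 to 1285 and 85.7 to 2292 in the tumours. Cdkn2c, the p18 inhibitor, was 3400 in mc3T3 and 856 to 1661 in the tumours. Of 13 DREAM and E2F regulators Lin54, a MuvB subunit that binds CHR, was higher (1.28 ± 0.31, limma adjusted p = 0.0127), at 402 to 702 in the tumours and 210 in mc3T3. Anapc2, a core subunit, was the 1 of 15 anaphase-promoting complex genes called, and it was lower (-1.26 ± 0.32, limma adjusted p = 0.0173). Gins3 was the 1 of 32 replication genes called, also lower (-1.30 ± 0.38, limma adjusted p = 0.0346). Of 60 other mitotic genes 0 were called, with a median of -0.23. Beside these, 7 of 8 macrophage, 6 of 6 endothelial and 6 of 6 osteoclast markers were called higher in the tumours. The macrophage markers summed to 669.0, the endothelial markers to 158.9 and the osteoclast markers to 4078 in mc3T3, below the tumour ranges given above, and their part in the members' differences was not tested.

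The tumour labelled rhabdomyosarcoma had most members at the upper end of the osteosarcoma range, with none called. In the limma fit 0 of 45 were called higher and 0 lower, where 1.19% and 1.76% of all genes were, and at an unadjusted p under 0.05 there were 2 higher, Ccnd1 and Anln, and 0 lower, against 7.95% and 8.03%. The members' median difference was 0.50, against 0.05 over all genes, and 40 of 45 were above 0. Without osteosarcoma 12 the median was 0.40. This tumour was above all 12 osteosarcomas for 12 members, against 16.6% of all genes, and below all 12 for 0, against 14.1%. Of these 12, 11 were mitotic, Bub1, Cenpa, Cenpe, Cdc20, Nusap1, Ndc80, Prc1, Anln, Racgap1, Melk and Cks1b.

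Ccnd1 gave the largest difference there, at 15278 against 5669 ± 2418 (SD, n = 12), 1.55 ± 0.60 (SE) log2 units (limma adjusted p = 0.213). Its 2 other probe sets had differences of 1.22 and 1.86. Anln was 4180 against 1888 ± 514 (SD, n = 12), 1.20 ± 0.50 (limma adjusted p = 0.252). Cenpe was 1490, just above the 1475 of osteosarcoma 8, with a difference of 1.15 ± 0.71 (limma adjusted p = 0.464). Kif4, a chromosome motor, went the other way, at 265 against a median of 444, a difference of -0.63 ± 0.48 (limma adjusted p = 0.563). Cdkn2a was 4014 in this tumour, above all osteosarcomas, with a difference of 3.34 ± 1.09 (limma adjusted p = 0.130). None of the kinase inhibitor, other mitotic, anaphase-promoting complex, DREAM and E2F or replication genes was called in this comparison. The summed macrophage markers were 100394, above the 40260 to 87690 of osteosarcomas 1 to 11, with 0 of 8 called and 6 of 8 above all 12 osteosarcomas. The 4 lymphocyte markers summed to 707.2, above the highest osteosarcoma at 656.9, with 0 of 4 called and 2 of 4 above all 12. The 6 osteoclast markers were all called lower, summing to 1883. The part of these markers in the members' levels was not tested. Set beside mc3T3, 1 array each with no test, this tumour had the higher signal of Cks2 (5815 and 1411), Cenpa (2796 and 829), Cdc20 (6300 and 1866) and Ccnd1 (15278 and 3662), and the lower of Kif4 (265 and 566) and Ccnd3 (1673 and 2873).

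**Figure D5:**
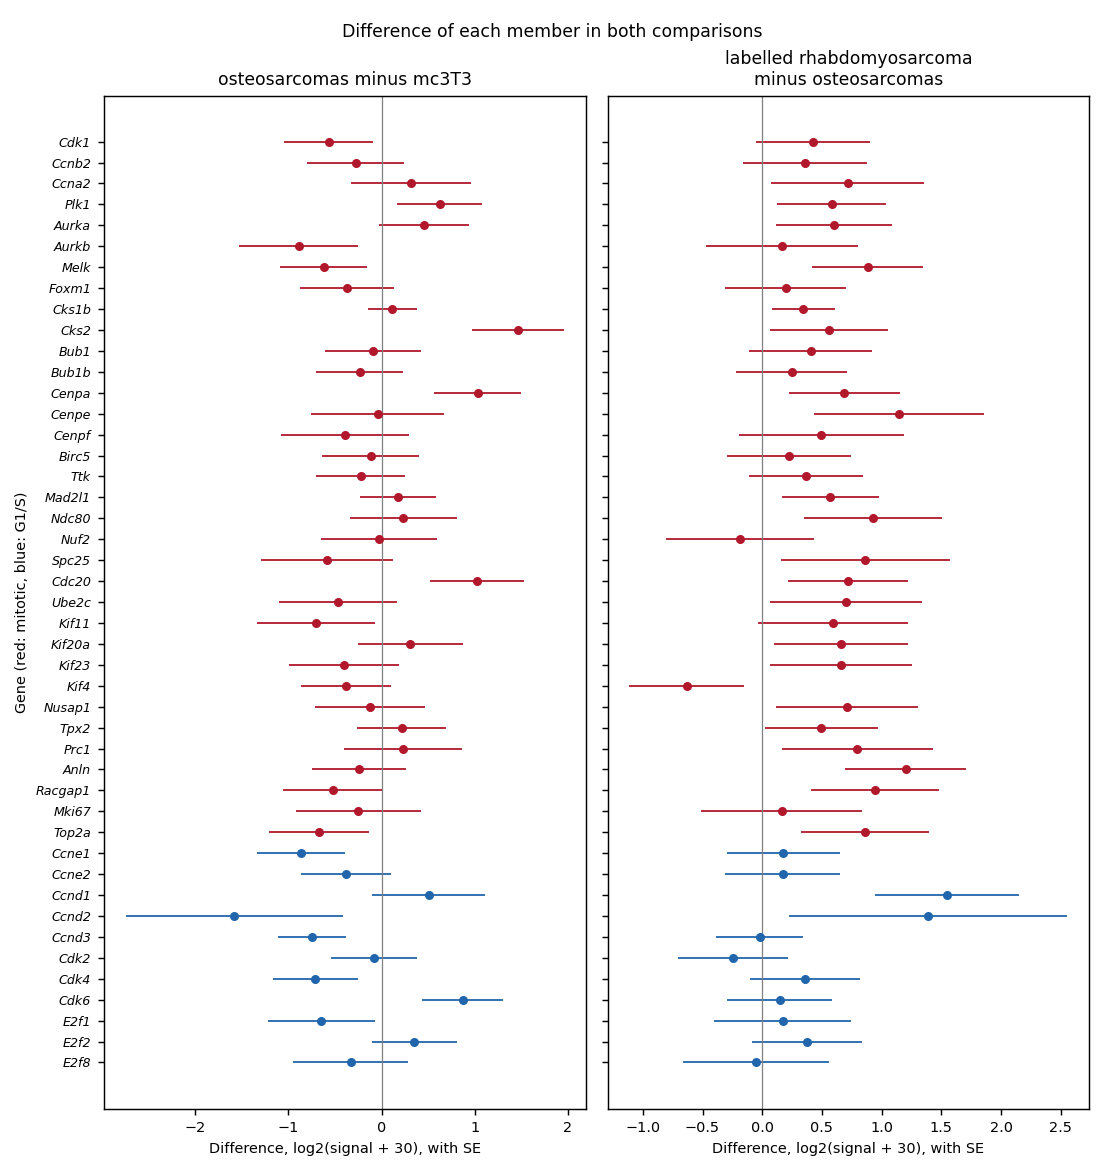
Points give each member's difference in log2(signal + 30) with its standard error, on the left osteosarcomas minus mc3T3 and on the right the tumour labelled rhabdomyosarcoma minus osteosarcomas. No member was called, the medians are -0.24 and 0.50, and 40 of 45 points lie above 0 on the right.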

How the data were processed

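Total RNA of 14 samples was biotin-labelled and hybridised to expression arrays, per the labels' protocols. The deposited values are array signal (intensity) on a linear scale from GCOS, per the submitters' processing notes. The mean of each array after dropping 2% of probe sets at each end was 500, so the authors had scaled the arrays. How background was corrected and probes were summarised is not given in the sources used here. Without detection calls, dim signal and background look the same. Precision is limited by the number of arrays.

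Groups follow the titles. Osteosarcoma numbers follow accession order and only name samples. The labels do not say whether tumours came from separate animals, so p-values measure only the spread between these samples, which may be technical. log2(signal + 30) was analysed, which understates changes of low genes. Of 45101 probe sets, 34945 had 1 gene symbol, 932 several, 9160 none and 64 were controls. Genes reaching a signal of 200 on 1 or more arrays were tested by their brightest probe set, with limma 3.58.1 in R 4.3.3 (3 groups, 11 residual and 3.56 prior degrees of freedom, two-sided, Benjamini-Hochberg over 11815 genes). Genes were called at an adjusted p under 0.05 with 1 log2 unit or more. The brightest probe sets of Aurkb, Cdc20, Cdk4, Ccne1 and Prc1 are of a design that can take up signal of related genes. The fit was tested on simulated data, where 42.0% of changes of 2 log2 units in a lone mc3T3 array and 48.0% in a lone tumour array were recovered, over 11264 and 11263 genes, and 4.26% and 6.38% of changes of 1 unit.

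Members and lists were chosen with earlier results of these data known. Members described in full are those called, the 5 with the largest SD and the brightest of each role group. Other single members, the promoters printed and the weight on osteosarcoma 12 were chosen after values were seen. Alternatives were the pseudocount, the filter, quantile normalization, the mean of probe sets, a variance trend, leaving out each osteosarcoma, and tumours of 1 identifier letter.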

Additional observations from a re-analysis of the deposited data

How the results depend on the processing

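Over all alternatives of both comparisons, the count of members called lower was 0. The count called higher was 0 in the comparison of the labelled rhabdomyosarcoma under all of them. Against mc3T3 it ranged from 0 to 1 on leaving out 1 osteosarcoma, being 1 without osteosarcoma 7 (Cks2) and without osteosarcoma 12 (Cenpa), and it was 1 with only the tumours whose identifiers begin with c or o (Cenpa, 1.35, limma adjusted p = 0.0423). With those tumours alone all-gene counts were 661 higher and 253 lower against mc3T3 (1015 and 541 with all) and 68 and 89 for the labelled rhabdomyosarcoma (141 and 208 with all), with fewer samples. For the latter comparison a pseudocount of 10 gave 97 and 225, and one of 100 gave 206 and 171. The median SD of the members ranged from 0.36 to 0.54 on leaving out 1 osteosarcoma and was 0.35 with only the c or o tumours. The median r of mitotic pairs was 0.22 without osteosarcoma 12 and 0.66 after quantile normalization. Without osteosarcoma 12 the relations of Top2a with Mki67 (r = 0.49) and Foxm1 with Plk1 (r = 0.50) no longer passed, and those of Mki67 with Cdkn1a (0.16), Csf1r (0.48) and the beta-actin ratio (0.44) had the other sign, as Csf1r had after quantile normalization (0.01), though none of these passed the permutation test in either setting. The cause was not tested. With a filter of 500, 43 members were tested. The second probe sets of Ccnd1 and Ccnd2, added after seeing the data, had r = 0.86 and 0.99 with the brightest. No paired analysis was possible because the labels give no replicate numbers and both other groups hold 1 array. In simulated data 4.26% of changes of 1 log2 unit in a lone mc3T3 array and 6.38% in a lone tumour array were recovered. Such changes sit at the threshold of 1 unit that a call needs, which itself lowers their recovery, and smaller changes were not simulated. Signals near the filter limit what can be read for E2f2.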

Other observations

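The 2 leading genes without osteosarcoma 12, neither in a cell cycle list, are given as values. They were most like the mitotic mean over the other 11 tumours, a ranking chosen after the data were seen. With 11770 genes ranked over so few tumours, high r can arise by chance, and no link was tested. Tmem161b had r = 0.82 over 11 tumours and -0.31 over 12, and Kif5c, a transport kinesin, had r = 0.81 and 0.55. Among the 60 other mitotic genes, Nek2, a centrosome kinase, ranked 5 there with r = 0.80.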
